A study of Canis lupus familiaris with 18 samples.

Results

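Canine osteosarcomas were ordered by a score of osteoblast genes, and the 6 tumours of highest score were compared with the 6 of lowest score, 12 of the 18 tumours in the series. The samples were primary bone tumours of dogs, snap frozen when removed, biopsied or collected at necropsy, with 1 Affymetrix array of total RNA per tumour. The dogs had either a normal or an increased serum concentration of alkaline phosphatase (ALP), an enzyme that enters blood mainly from bone and liver, and each of these groups held 9 tumours. No treatment, age, breed or batch was given in the labels used here, which tumour was collected in which way was not given either, and no normal bone was included. Tumours are named by serum ALP group and tissue number, such as normal ALP replicate 4.

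Osteoblasts build bone: they secrete collagen I and other matrix proteins and then let calcium phosphate crystals grow in that matrix. ALPL, the tissue-nonspecific alkaline phosphatase, frees phosphate for those crystals, IBSP (bone sialoprotein) binds them, SP7 (osterix) is a transcription factor that osteoblasts need to form, and PHEX is a membrane peptidase of osteoblasts and osteocytes, the osteoblasts that became enclosed in bone. Osteoclasts are the opposing cells: they arise from the monocyte lineage, seal onto bone and dissolve it with acid and proteases. Osteosarcoma is defined by tumour cells that make bone matrix, and tumours differ in how much they make.

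The score was meant to average the z-scores of ALPL, IBSP, SP7 and PHEX, each at its probe set of highest mean over the 18 arrays. No probe set carried the name SP7 in the platform annotation, so the score rests on the 3 other genes. These 3 genes chose the sides and are given as a description, with no test, and their 5 probe sets were left out of everything that follows. The high side held increased ALP replicate 4 at a score of 1.23, increased ALP replicate 9 at 1.004, increased ALP replicate 8 at 0.97, normal ALP replicate 5 at 0.89, normal ALP replicate 4 at 0.75 and normal ALP replicate 6 at 0.65. The low side held normal ALP replicate 7 at -0.56, normal ALP replicate 2 at -0.58, increased ALP replicate 1 at -0.89, increased ALP replicate 7 at -1.12, normal ALP replicate 3 at -1.50 and increased ALP replicate 2 at -1.69. The upper boundary was nearly a tie, since the seventh tumour, increased ALP replicate 5, scored 0.65 as well, while the tumour just above the low side, normal ALP replicate 1, scored -0.23. The 3 genes did not always move together: normal ALP replicate 7 had a z-score of 0.10 for ALPL but -1.13 for IBSP, and normal ALP replicate 2 was low mainly through PHEX, at -1.38.

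**Figure D1:**
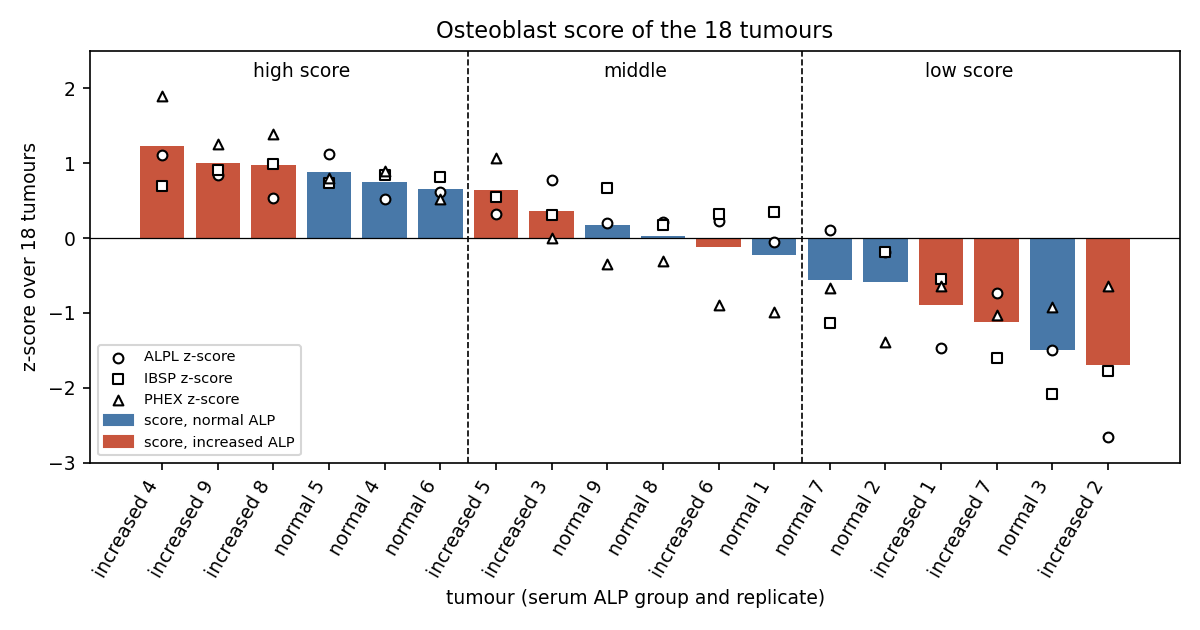
Osteoblast score of each of the 18 tumours (bars, mean of 3 z-scores over all tumours), ordered from highest to lowest and coloured by serum ALP group, with the z-scores of ALPL, IBSP and PHEX as open symbols; dashed lines mark the high and the low 6. Both serum ALP groups stand on both sides, and the sixth and seventh tumours both score 0.65.

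Serum ALP was not used to choose the sides. The high side held 3 tumours with increased and 3 with normal ALP, and so did the low side (Fisher's exact test, two-sided, p = 1.0). With the seventh tumour in place of the sixth, the high side held 4 with increased and 2 with normal ALP, and p was again 1.0. Over all 18 tumours the score was 0.04 ± 1.06 (SD, n = 9) with increased and -0.04 ± 0.77 (SD, n = 9) with normal ALP, a difference of 0.09 with an exact two-sided permutation p of 0.840. A difference in score between the serum ALP groups was therefore not detectable with these arrays, and its sign turned to -0.14 when PHEX was left out of the score.

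Before the genes are described, 3 tumours need naming because they stood apart from their side. Normal ALP replicate 4, on the high side, had high fibroblast and smooth muscle genes, 0.83 and 1.08 above the mean of all tumours (log2 scale, averaged over each list), where the medians of the high side were -0.56 and -0.62. Its immediate early genes were 1.42 above the mean. Normal ALP replicate 2, on the low side, had cell division genes 1.10 above the mean, against a median of -0.39 for that side, and fibroblast genes at -0.46 against 0.63. Increased ALP replicate 4, on the high side, had skeletal muscle genes 2.74 above the mean, against a side median of -0.32. The number of calls depended on the normal ALP replicates 4 and 2, and it is given with and without them. Of the measures of RNA quality, the difference between the 3' and 5' probe sets of GAPDH, which grows as RNA degrades, was 1.10 ± 0.13 (SD, n = 6) on the high and 1.27 ± 0.19 on the low side (exact permutation p = 0.0974). The difference between the 3' and middle probe sets of actin was 0.58 ± 0.30 against 0.57 ± 0.26 (exact permutation p = 0.918). The signal of BioB, a spike-in that reports on hybridisation and not on RNA quality, was 8.65 ± 0.18 against 8.94 ± 0.15 (exact permutation p = 0.0152). The upper quartile of the array signals was 8.24 ± 0.03 against 8.19 ± 0.03 (exact permutation p = 0.0238). No fit used BioB as a covariate.

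Genes called higher in the tumours of high score included DMP1 and PHOSPHO1, which act in bone mineral, the hormone receptor gene PTH1R, the adhesion gene CDH2 and the osteoclast genes ACP5 and ATP6V0D2. In the lists of bone genes most members were not called: 1 of 12 for bone matrix, 1 of 14 for mineral deposition, 0 of 23 for collagen I and its processing and 2 of 12 for osteoclasts were higher. Of 25750 probe sets tested in limma's moderated test, 73 were higher (0.283%) and 9 lower (0.035%) on the high side at a Benjamini-Hochberg adjusted p under 0.05, here termed called. They belonged to 42 genes called higher and 7 called lower, and 17 of the higher and 2 of the lower probe sets had no gene name. Taking each gene by its probe set of highest mean, 34 of 10714 genes were higher (0.317%) and 5 lower (0.0467%). Differences are high minus low score in log2(signal + 16) units, where the added 16 makes folds of faint probe sets look smaller, and all genes together had a median of -0.01. The sides were picked by 3 genes of these same arrays, so the calls describe genes that vary with those 3 across 12 tumours and are no test in separate samples. For 10 of the 82, PHOSPHO1, TNFRSF11B, KRT24 and PDC among them, the mean of the 12 tumours outside the brighter side lay under the filter on dim probe sets (6.15), so they passed it only through that side. In tumour tissue, fewer cells of a type and less RNA per cell cannot be told apart.

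The number of calls depended on single tumours and on the covariate. Without normal ALP replicate 4 there were 377 higher (1.46%) and 190 lower (0.738%), and without normal ALP replicate 2 there were 377 (1.46%) and 217 (0.843%). Leaving out both, a choice made after these counts were seen, gave 1070 higher (4.16%) and 769 lower (2.99%), including all 82 original calls. Each of the 10 other tumours, left out in turn, reduced the calls, to between 15 and 51 higher. With the GAPDH difference as a covariate only 2 of the 82 stayed called, and with that covariate and both tumours left out 35 did, among 96 higher and 94 lower calls. With the covariate and all 12 tumours the differences of the 82 had a median of 0.91 times their original size, with 0 shrunk by over 1.5 times. With the actin difference as a covariate 57 of the 82 stayed called, again with 0 shrunk by over 1.5 times. With the arrays scaled to their 75th percentile 74 of the 82 stayed called. All 82 kept their sign in these fits, but 74 of them had sides that did not overlap, which fixes the sign when a tumour is left out.

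Matrix and mineral genes were among the calls. DMP1, a secreted matrix protein of osteocytes and maturing osteoblasts that nucleates mineral, had signals of 7.83, 8.46 and 9.34 (lowest, median and highest, log2 scale) on the high side and 6.06, 6.68 and 6.91 on the low side. The sides did not overlap, and the difference was 1.88 ± 0.25 (SE, adjusted p = 0.0128, limma), at the brighter of its 2 probe sets, both of which were called. PHOSPHO1, a phosphatase that releases phosphate inside matrix vesicles, spanned 6.60 to 6.88 on the high and 5.80 to 6.46 on the low side, a difference of 0.70 ± 0.11 (adjusted p = 0.0272, limma). Its sides did not overlap, but it passed the filter on dim probe sets only through its brighter side. GALNT3, the glycosyltransferase that protects the phosphate hormone FGF23 from cleavage, stood at 8.96, 9.16 and 9.57 against 5.71, 6.53 and 7.88, a difference of 2.71 ± 0.30 (adjusted p = 0.00487, limma). SGMS2, a sphingomyelin synthase of the cell surface, was higher by 2.31 ± 0.27 (adjusted p = 0.0058, limma), with no overlap.

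Among the other bone matrix genes 3 had large differences, and none passed. Of 12 measured bone matrix genes, 8 were higher and 4 lower, only DMP1 was called, and the median was 0.20 against -0.01 over all genes. SPP1 (osteopontin) had a difference of 2.57 ± 0.56 (adjusted p = 0.0791, limma), OMD (osteomodulin) 3.51 ± 0.80 (adjusted p = 0.0891) and BGLAP (osteocalcin) 2.54 ± 0.69 (adjusted p = 0.136). BGLAP ranged from 6.65 to 12.41 among high-score tumours, whereas every low-score tumour lay between 6.29 and 6.84. Without normal ALP replicate 4, SPP1 and BGLAP passed at adjusted p = 0.038 and 0.023 in limma, and OMD did not, at 0.067. In that fit 1.46% of all probe sets were called higher. Without normal ALP replicate 2, SPP1 and OMD passed at adjusted p = 0.035 and 0.005 in limma, and BGLAP did not, at 0.082. Without increased ALP replicate 4 none of these genes passed, at adjusted p = 0.180 for SPP1, 0.182 for OMD and 0.213 for BGLAP in limma. Of 14 mineral deposition genes, 10 were higher and 4 lower with a median of 0.24. PHOSPHO1 was called, SMPD3, a sphingomyelinase needed for mineralization, missed at 2.83 ± 0.54 (adjusted p = 0.0515, limma), and ENPP1, which makes the mineral inhibitor pyrophosphate, stood at 1.81 ± 0.37 (adjusted p = 0.0643, limma).

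Neither chain of collagen I, the main protein of bone matrix, was called. COL1A1 had a difference of -0.09 ± 0.29 (SE) and COL1A2 of 0.14 ± 0.09. Of 23 genes for collagen I and its processing 18 were higher and 5 lower, none was called, and 8 were higher and 0 lower at an unadjusted p under 0.05, a level that 8.6% of all genes passed upward. The 4 with the smallest p were P4HA2, PPIB, SERPINH1 and COL24A1, between 0.29 and 0.90. In the secretory pathway and unfolded protein response list, 32 of 33 genes were higher with a median of 0.24, and again none was called.

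Genes of hormone, cytokine and growth factor signalling were also called, and which cells expressed them was not measured. PTH1R, the receptor for parathyroid hormone and its related protein, had signals of 10.82, 11.59 and 11.89 on the high and 6.72, 8.36 and 10.67 on the low side, a difference of 3.04 ± 0.51 (adjusted p = 0.0315, limma). Its ligand gene PTHLH ran the other way without passing, at -1.65 ± 0.45 (adjusted p = 0.139, limma). LIFR, a receptor subunit for leukaemia inhibitory factor, was higher by 2.76 ± 0.38 (adjusted p = 0.0171, limma), with both of its probe sets called. Of the 22 measured BMP and TGF-beta genes, TGFB1 was called at 1.54 ± 0.26 (adjusted p = 0.0315, limma) and BMP4, a bone morphogenetic protein, at 2.99 ± 0.55 (adjusted p = 0.0443, limma). TGFB1 did not overlap between the sides, while BMP4 did, with a lowest high-score value of 8.17 and a highest low-score value of 9.09. The whole list was split, with 12 higher, 10 lower and a median of 0.07. BAMBI, a decoy receptor that dampens TGF-beta signalling, had signals of 10.02, 10.51 and 11.04 against 5.93, 7.15 and 8.72, a difference of 3.38 ± 0.45 (adjusted p = 0.0127, limma).

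Of the 10 measured osteoblast transcription factors 0 were called higher and 1 lower, while 6 had differences above and 4 below 0, with a median of 0.21. MEF2C, a factor active in osteocytes and muscle that was not in that list, was called higher at 1.91 ± 0.30 (adjusted p = 0.0255, limma), with 3 of its 4 probe sets called. RUNX2, the master factor of the lineage, had a difference of 0.89 ± 0.24 (adjusted p = 0.132, limma) and DLX5 of 1.96 ± 0.56 (adjusted p = 0.145, limma). Both ranges overlapped between the sides. MSX2, a homeobox factor that acts early in the lineage, was called lower: its signals were 7.23, 7.88 and 8.32 on the high and 8.53, 9.33 and 10.17 on the low side, a difference of -1.58 ± 0.29 (adjusted p = 0.0477, limma). MSX2 was called at 1 of its 2 probe sets. ZNF521, a repressor of RUNX2 activity, stood at -1.35 ± 0.38 (adjusted p = 0.140, limma). With normal ALP replicate 2 left out, 4 of the 10 factors were called higher and 2 lower, where 1.46% and 0.843% of all probe sets were. RUNX2 and DLX5 then passed at adjusted p = 0.013 and 0.035 in limma. With normal ALP replicate 4 left out, 0 were called higher and 2 lower, where 1.46% and 0.738% of all probe sets were. With increased ALP replicate 4 left out, 0 were called in either direction.

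Other genes called higher are described by what each encodes, with no list behind them. CDH2 (N-cadherin), which joins osteoblasts to each other, had signals of 10.34, 11.18 and 12.11 on the high and 5.91, 6.90 and 8.81 on the low side. The difference was 4.16 ± 0.49, or 17.9-fold, with an adjusted p of 0.0058 in limma. CDH15 (M-cadherin), best known from muscle precursors, stood at 8.36, 9.37 and 10.72 against 6.26, 6.65 and 6.90, a difference of 2.82 ± 0.31 (adjusted p = 0.00487, limma). Its highest value was that of normal ALP replicate 5. That tumour also had TTN and MB, genes of muscle fibres, at 8.94 and 8.68, where the low side reached 6.61 and 5.98. MYH7, another such gene, was at 5.99 there, and the skeletal muscle list mean was -0.09, where the low side reached -0.58. The next highest CDH15 value, 9.84, was that of normal ALP replicate 6, whose list mean was -0.87. Among high-score tumours, skeletal muscle genes were highest in increased ALP replicate 4, at 2.74 in list mean, where CDH15 stood at 8.95. In normal ALP replicate 1, a middle tumour, the list mean was 4.40 and CDH15 7.75, and the part of muscle tissue in the difference was not tested. COL13A1, a transmembrane collagen of bone and neuromuscular junctions, was higher by 2.74 ± 0.43 (adjusted p = 0.0255, limma) and LOXL4, a collagen cross-linking oxidase, by 0.97 ± 0.14 (adjusted p = 0.0188, limma). Among less familiar genes, LOC606890 had the smallest p of any gene at its brightest probe set, 3.39 ± 0.34 (adjusted p = 0.00336, limma). RANBP3L, a nuclear export factor for BMP-regulated SMADs, was higher by 4.14 ± 0.53 (adjusted p = 0.01, limma) and the elongation factor ELL2 by 1.41 ± 0.19 (adjusted p = 0.0127, limma). COL13A1, RANBP3L and ELL2 were each called at 1 of their 2 probe sets.

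**Figure D2:**
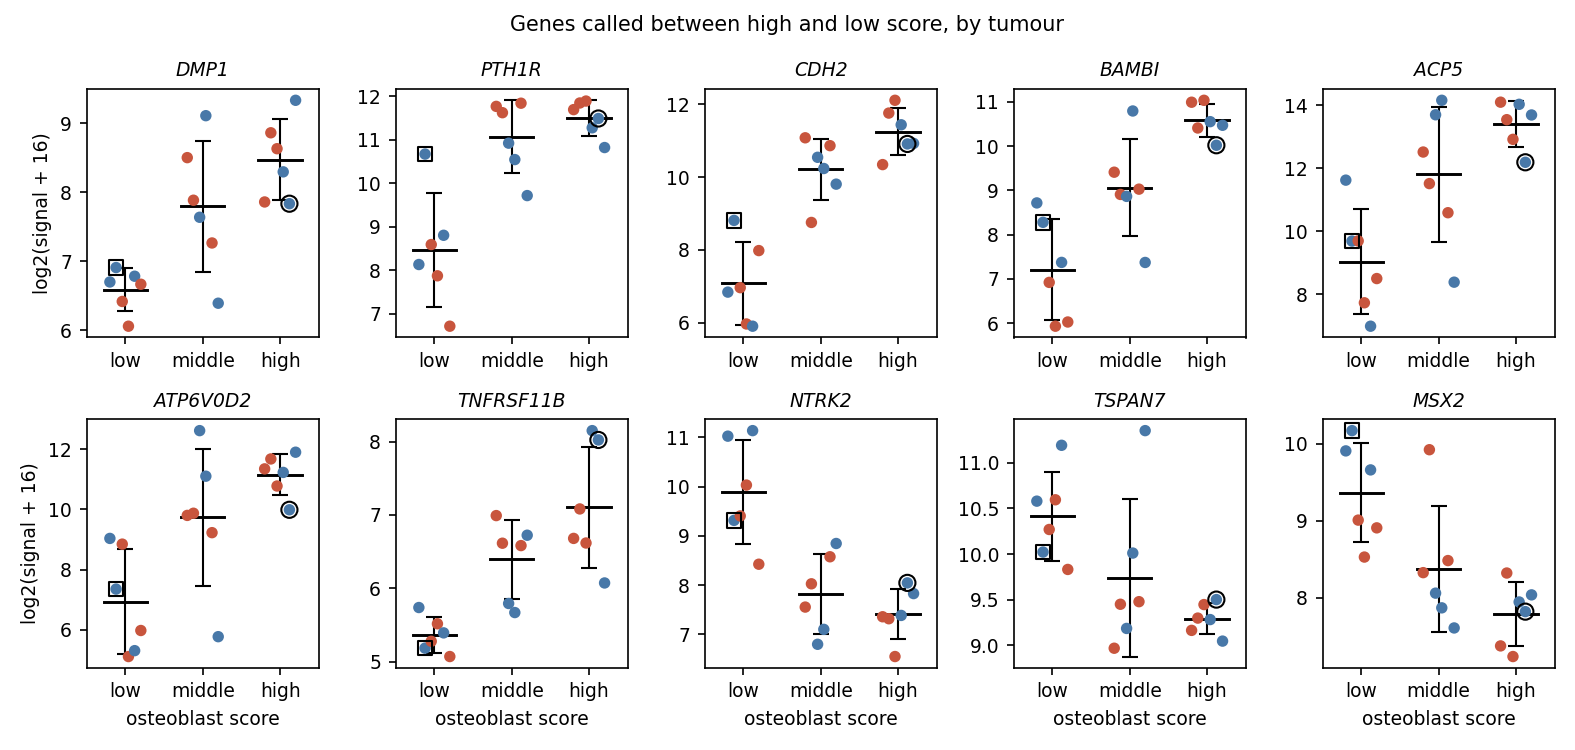
Signals of 10 called genes as log2(signal + 16) in every tumour (points, blue for normal and red for increased serum ALP), by low, middle and high score, with the mean (long bar) and SD (error bar, n = 6 each); the ring marks normal ALP replicate 4 and the square normal ALP replicate 2. NTRK2, TSPAN7 and MSX2 are lower and the other genes higher with a high score, and none of the 10 overlaps between the low and the high side.

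Osteoclast genes were higher on the same side as the osteoblast genes. ACP5 (tartrate-resistant acid phosphatase), the classical osteoclast enzyme, had signals of 12.20, 13.62 and 14.10 on the high and 6.99, 9.10 and 11.63 on the low side. The difference was 4.38 ± 0.67, or 20.8-fold (adjusted p = 0.0254, limma), and both of its probe sets were called. ATP6V0D2, the proton pump subunit of osteoclasts, stood at 9.99, 11.29 and 11.90 against 5.11, 6.66 and 9.04, a difference of 4.22 ± 0.69 (adjusted p = 0.029, limma), with all 3 probe sets called. Neither gene overlapped between the sides. CTSK (cathepsin K), the protease that digests bone collagen, was called at 1 of its 2 probe sets, by 1.23 ± 0.19 (adjusted p = 0.0255, limma), while its brighter one stood at 0.64 ± 0.13 (adjusted p = 0.0605, limma). MMP9 had a difference of 4.37 ± 0.98 (adjusted p = 0.085, limma), TCIRG1, another pump subunit, 0.96 ± 0.22 and CLCN7, the chloride channel of the resorbing membrane, 0.51 ± 0.11, none of which passed. Of the 12 measured osteoclast genes 10 were higher and 2 lower. At an unadjusted p under 0.05 there were 9 higher, a level that 8.6% of all genes passed upward. Between the sides 6 did not overlap, where 0.971% of all genes were higher without overlap. At their brightest probe sets, ACP5 stayed called in 7 and ATP6V0D2 in 4 of the 12 fits that left out 1 tumour. Without increased ALP replicate 4, 0 of the 12 genes were called. Without normal ALP replicate 4, 5 were called higher, where 1.46% of all probe sets were. The list median was 0.70.

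Among the genes of signalling to osteoclasts, the decoy receptor was called and the ligand was not. The difference between them was not tested. TNFRSF11B (osteoprotegerin), which blocks osteoclast formation, had signals of 6.07, 6.88 and 8.15 on the high and 5.07, 5.33 and 5.74 on the low side, a difference of 1.74 ± 0.32 (adjusted p = 0.0443, limma). It passed the filter on dim probe sets (6.15) only through its brighter side. TNFSF11 (RANKL), the ligand that drives osteoclast formation, had 1.41 ± 0.53 (adjusted p = 0.232, limma) with overlapping sides. CSF1R, a receptor on the receiving monocyte lineage that is also in the macrophage list, stood at 0.80 ± 0.23 (adjusted p = 0.146, limma). Of 11 genes in the list 5 were higher and 6 lower, with a median of -0.03.

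Most macrophage genes were lower on the high side, without passing the test. Of 19 measured, 4 were higher and 15 lower with a median of -0.49, and C1QB, a complement subunit of tissue macrophages, stood at -1.22 ± 0.35 (adjusted p = 0.145, limma). CD68, a lysosomal protein of macrophages and osteoclasts, was the only one called, and it was higher, by 1.88 ± 0.35 (adjusted p = 0.047, limma). It was called at 1 of its 2 probe sets. All 8 MHC class II genes were lower with a median of -0.70 and none was called. With the GAPDH difference as a covariate and normal ALP replicates 2 and 4 left out, the medians of the macrophage and MHC class II lists turned to 0.16 and 0.17, so neither direction is settled.

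Genes lower with a high score were fewer. NTRK2, a neurotrophin receptor, had signals of 6.55, 7.37 and 8.04 on the high and 8.42, 9.72 and 11.14 on the low side, a difference of -2.48 ± 0.44 (adjusted p = 0.0379, limma). TSPAN7, a tetraspanin, differed by -1.12 ± 0.21, spanning 9.05 to 9.50 against 9.83 to 11.19 (adjusted p = 0.047, limma). PDLIM7, a LIM protein of the actin skeleton, had -0.80 ± 0.13 (adjusted p = 0.028, limma) and the keratin KRT24 -1.31 ± 0.20 (adjusted p = 0.0254, limma). NTRK2 was called at 1 of its 2 probe sets, and TSPAN7 and PDLIM7 at 1 of 3 each, the rest having the same sign. TNFSF10 (TRAIL) and LAMB1, a laminin chain, were called lower at a second probe set only, at -1.92 and -0.66. Those next in order of p, which did not pass, were RGS17, MEIS2, DSEL, MAP2K2 and LAPTM4B, at -1.86, -2.11, -2.22, -0.72 and -2.33.

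Fibroblast and interstitial matrix genes were mostly lower, with no call. Of 25 measured, 22 were lower and 3 higher, 12 were lower at an unadjusted p under 0.05, a level 7.72% of all genes passed downward, and the median was -0.74. COL14A1, a collagen of dense connective tissue, had signals of 7.46, 7.65 and 9.33 on the high and 8.22, 10.01 and 11.03 on the low side, a difference of -1.95 ± 0.45 (adjusted p = 0.0923, limma). ASPN (asporin), a small proteoglycan, had -2.47 ± 0.69 (adjusted p = 0.140) and MFAP5, a microfibril protein, -3.76 ± 1.24 (adjusted p = 0.186). In each of the 3 the highest value of the high side overlapped the low side, and it was that of normal ALP replicate 4. Without that tumour 5 of the 25 were called lower (0.793% of all genes were), without normal ALP replicate 2 there were 3 (0.943% of all), and without both 12 (3.22% of all). Smooth muscle and pericyte genes were lower in 9 of 10 with a median of -0.64, and cartilage genes in 10 of 14 with a median of -0.56, again with no call. With the GAPDH difference as a covariate the medians were -0.47 for fibroblast, -0.22 for smooth muscle and -0.35 for cartilage genes. Without normal ALP replicates 2 and 4 that of smooth muscle genes was -1.11.

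**Figure D3:**
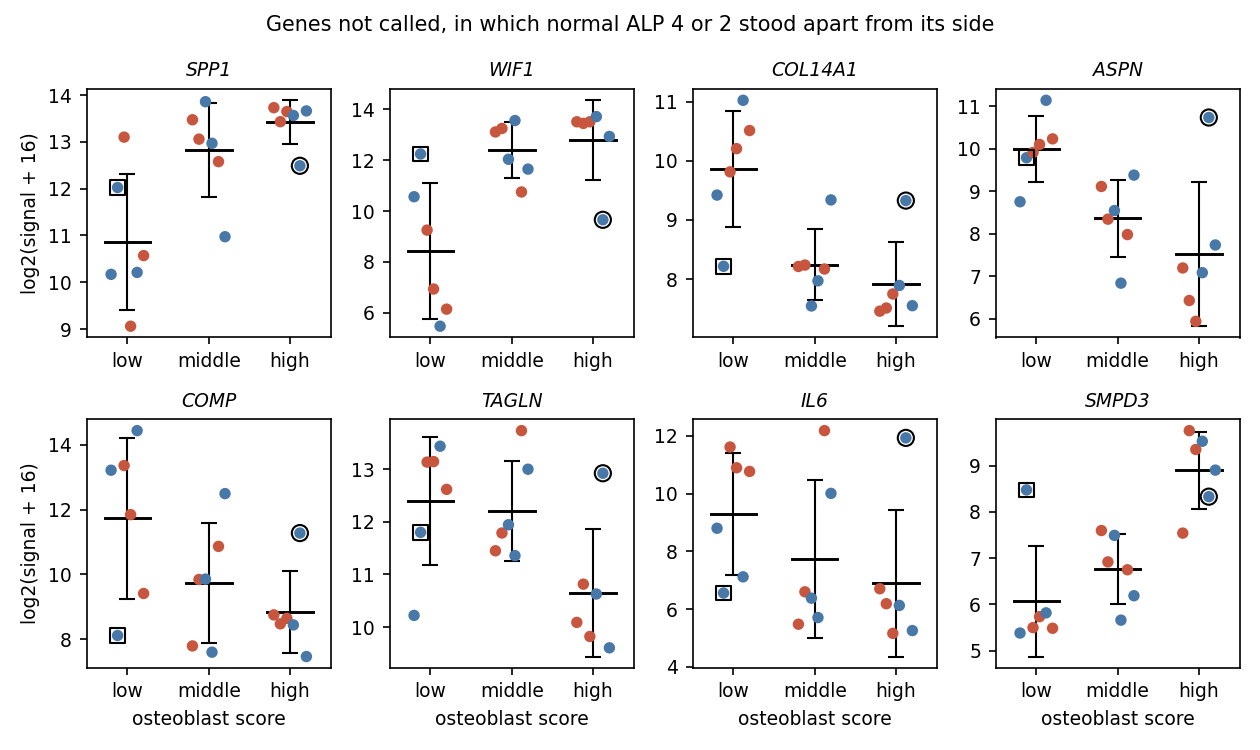
Signals of 8 genes that were not called, as log2(signal + 16) in every tumour, drawn as in the plot of called genes. Normal ALP replicate 4 (ring) lies far from the other high-score tumours in SPP1, WIF1, COL14A1, ASPN, COMP, TAGLN and IL6, and normal ALP replicate 2 (square) far from the other low-score tumours in SMPD3.

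No gene of the lists for cell division, respiration, glycolysis or skeletal muscle was called. All 25 measured cell division genes were higher with a median of 0.64, and the low side spanned -1.71 to 1.10 in list mean, from normal ALP replicate 3 to normal ALP replicate 2. With the GAPDH difference as a covariate the median was 0.18. Without normal ALP replicates 2 and 4 it was 0.96, and 7 of the 25 were called higher, where 4.16% of all probe sets were. Mitochondrial respiration genes were higher in 20 of 22 with a median of 0.26, which was 0.13 with that covariate. Without those 2 tumours it was 0.36, and 7 of the 22 were called higher. Glycolysis and hypoxia genes were lower in 15 of 22 with a median of -0.15, which was -0.45 with the covariate. At an unadjusted p under 0.05, 5 were lower and 1 higher, levels that 7.72% and 8.6% of all genes passed. All 11 skeletal muscle genes were higher with a median of 0.90, which was 0.22 without increased ALP replicate 4 and 0.58 with the covariate.

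**Figure D4:**
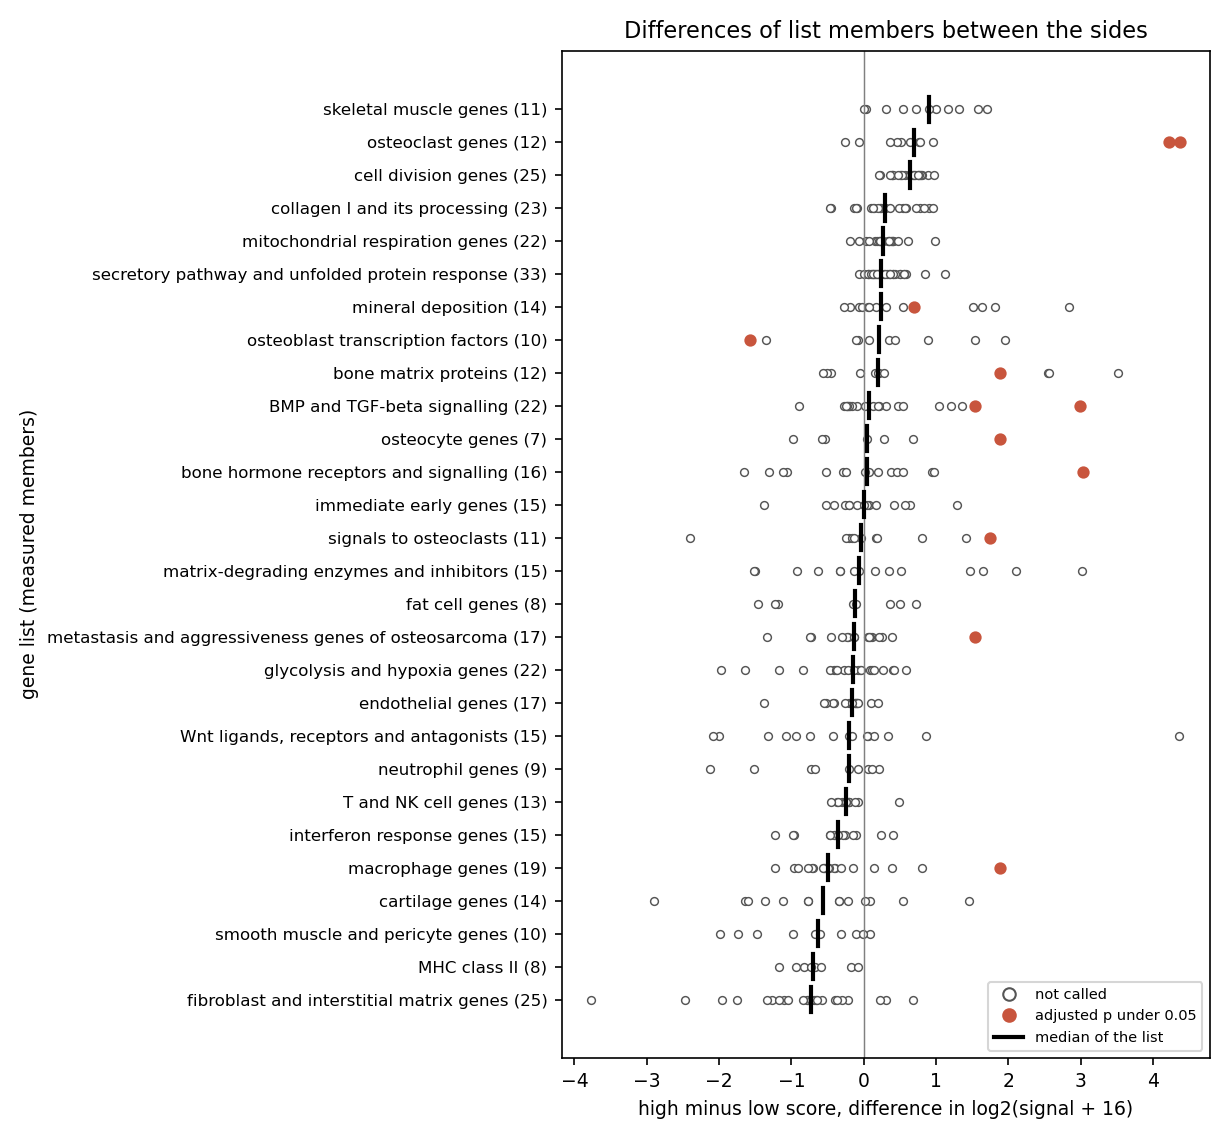
Difference of each measured list member between the sides (points, high minus low score, log2(signal + 16); filled where the adjusted p was under 0.05) and the list median (bar), with the number of members in brackets. Osteoclast, cell division and skeletal muscle genes have the highest medians and fibroblast genes the lowest, at -0.74.

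**Figure D5:**
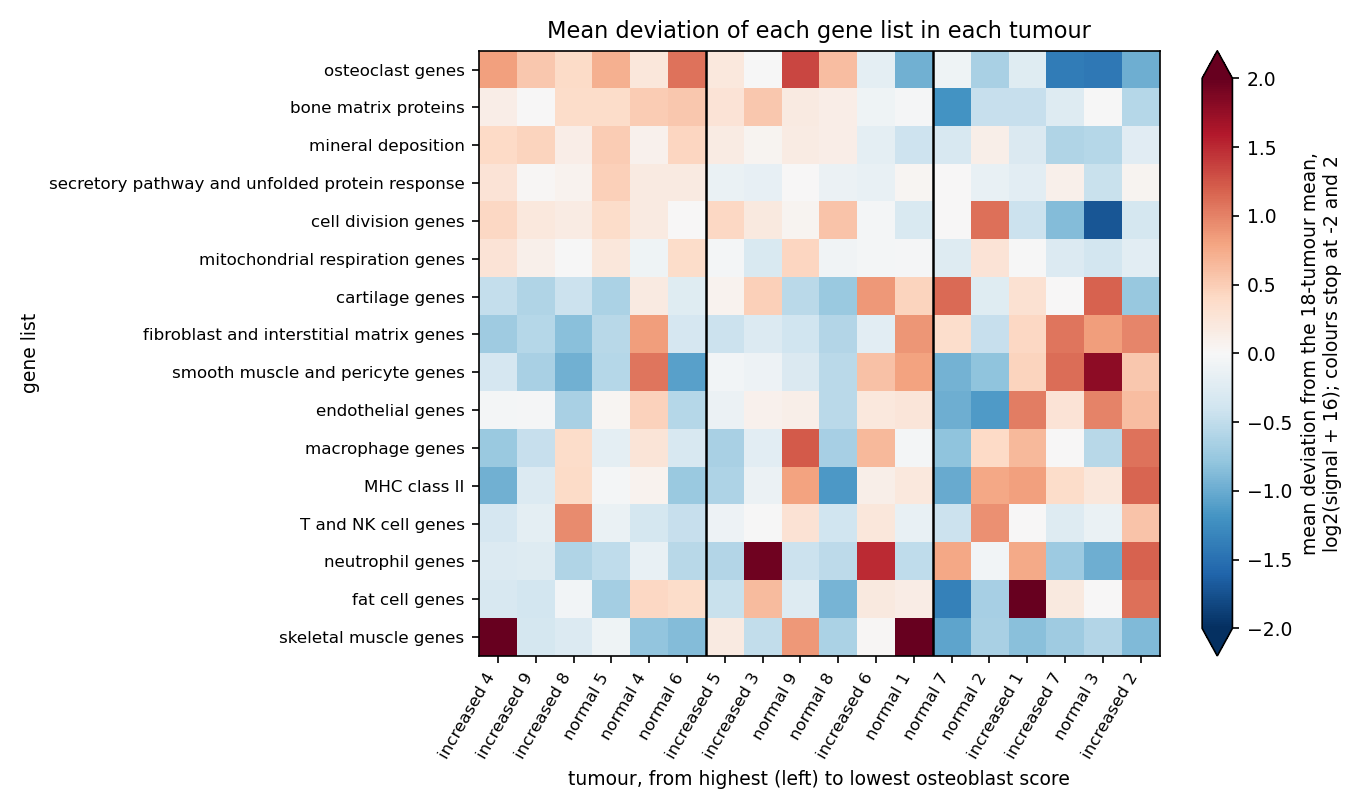
Mean deviation of each list from its 18-tumour mean (colour, log2 scale, stopping at -2 and 2) for every tumour, ordered by score from left to right. Osteoclast genes are above the mean in all 6 high-score and below it in all 6 low-score tumours, while normal ALP replicate 4 shows the fibroblast and smooth muscle genes at 0.83 and 1.08.

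The 6 middle tumours took no part in the contrast. For all 82 called probe sets their mean lay between the means of the sides, as it did for 37.4% of all probe sets tested. Within the middle 6, the slope on the score had the sign of the call for 70 of 82, against 61.4% of all. The 82 were picked for a wide difference between the sides, which leaves a middle mean more room to fall between them. All probe sets are therefore not a like background, and neither count is a test. The highest GAPDH differences of the series were in the middle increased ALP replicates 5, 3 and 6, at 1.90, 2.07 and 2.38. The sides reached at most 1.53. BioB was highest in increased ALP replicates 3 and 6, at 10.34 and 9.89. Increased ALP replicate 5 is also the seventh tumour that replaced the sixth in an alternative. The slope on the score was also compared between the serum ALP groups over all 18 tumours: limma called 0 probe sets different, with 938 (3.64%) at an unadjusted p under 0.05, out of 25750. Fitted within each group, the slope was called for 0 probe sets with normal ALP (1802 at an unadjusted p under 0.05) and for 94 upward and 54 downward with increased ALP; the test of the difference is the one above. A dependence on serum ALP was not detectable with 9 tumours per group. None of these slopes was fitted with the GAPDH difference, and the part of RNA quality in them was not tested.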

How the data were processed

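The deposited table holds log2 signals of 43035 probe sets on 18 arrays, made by the authors; the submitters' processing notes name MAS5, and its version and role are not given in the sources used here. Of 42924 probe sets other than controls, 29254 had 1 gene symbol, 439 several and 13231 none in the platform annotation. Values were turned to linear signals, 16 was added and log2 taken. Probe sets with a mean under the 40th percentile (6.15) were left out. Sides of 6 tumours were compared with limma 3.58.1 in R 4.3.3 (lmFit, eBayes with trend), two-sided, with Benjamini-Hochberg adjustment over 25750 probe sets and a threshold of 0.05. The number of arrays limits precision. The labels do not state that each tumour came from another dog, so p-values measure the spread between these samples.

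The members and gene lists were chosen with earlier results of these data known. SP7 had no probe set, so the score used 3 genes. Genes were named as the 15 of smallest p and 10 of largest difference per direction, and up to 4 members of each list; COL1A1, COL1A2, MMP9, TCIRG1 and genes called at a second probe set were named after their values were seen. A list value is the mean deviation of its members from the 18-tumour mean. The fit was tested on simulated data: 52% of 2-fold and 96% of 4-fold changes were called, with 8 false among 148 calls. The simulated probe sets varied independently, with normal noise and fixed sides. In the real data 3 genes of the same arrays chose the sides, and single tumours stood apart in many genes at once. The simulated rates therefore do not carry over to the real calls. Tissue numbers repeat across the serum ALP groups; correlations of same-numbered tumours ran from -0.164 to 0.27, so the numbers do not pair tumours. Alternatives were other offsets, filters, normalizations, fits, scores and covariates, and leaving out arrays. Python 3.11.15 with NumPy 2.4.6, pandas 2.3.3, SciPy 1.17.1 and matplotlib 3.10.9 was used for the rest.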

Additional observations from a re-analysis of the deposited data

Results flagged for a closer look

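In 33 of 290 groups of 6 tumours (11.4%), 1 tumour lay far from the others by Dixon's criterion, which chance gives in about 1 in 20 groups. Values are log2(signal + 16).

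On the high side, normal ALP replicate 4 was the highest for KRT24 at 6.51, DSEL at 9.08, LAPTM4B at 8.61, ZNF521 at 9.23, IL6 at 11.93, COMP at 11.27, SOX5 at 7.88, COL14A1 at 9.33, ASPN at 10.74, CNN1 at 8.17, TAGLN at 12.92, ENG at 10.47, CFD at 11.52, EGR1 at 11.03 and LGALS1 at 8.97. IL6, an inflammatory cytokine, lay between 5.16 and 6.71 in the other 5 tumours of that side. The same tumour was lowest for SPP1 at 12.49 and for the Wnt antagonist WIF1 at 9.66, where the others lay between 12.94 and 13.72.

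Increased ALP replicate 8 was lowest for PTHLH at 5.18 and highest for SIGLEC1 at 7.51, CD3E at 7.74 and MMP16 at 11.98. Increased ALP replicate 9 was highest for CD8B at 8.68, and increased ALP replicate 4 for MYH7 at 10.37 and SEC61A1 at 13.00.

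On the low side, normal ALP replicate 2 was highest for LOC606890 at 7.53, PDC at 6.08, COL24A1 at 7.72 and SMPD3 at 8.47. Normal ALP replicate 3 was lowest for PTGES at 10.60 and ADM at 8.72, and normal ALP replicate 7 highest for LRP6 at 9.59. Increased ALP replicate 2 was lowest for BGLAP at 6.29, and increased ALP replicate 1 highest for the fat cell hormone gene ADIPOQ at 12.49, where the others lay between 5.99 and 7.80.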

How the results depend on the processing

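The 82 called probe sets kept their sign under every alternative that tested them (66 with the filter at the 60th percentile, 39 with 1 probe set per gene), which the lack of overlap in 74 of them fixes when an array is left out, but the number called (73 higher, 9 lower) did not hold. Higher and lower calls were 31 and 0 with 5 against 5 tumours, 2 and 0 with the GAPDH difference as a covariate, 61 and 5 with the actin difference, 482 and 257 with array weights, 315 and 218 with the continuous score over 18 tumours, 51 and 2 with no filter, 46 and 6 with 1 probe set per gene, and 41 and 7 with ALPL left out of the score or the seventh tumour in place of the sixth (44 of the 82 kept). Leaving out normal ALP replicates 2 and 4 together, chosen after seeing the data, gave 1070 and 769. Adding the GAPDH difference to that fit, also chosen afterwards, gave 96 and 94 and kept 35 of the 82; the cause was not tested. Leaving out 1 array gave 15 to 377 higher and 0 to 217 lower calls. The genes called in all 12 such fits, by any probe set, were BAMBI, CDH15, CDH2, DMP1, ELL2, GALNT3, LIFR, LOC606890, ME2, RANBP3L and SGMS2; the brightest ME2 probe set differed by -0.01. With the tissue number as a replicate block the calls were 73 and 9. The fitted correlation within blocks was -0.003, with 3 numbers shared among the 12 tumours, so this fit could hardly change a call. With the GAPDH difference and without normal ALP replicates 2 and 4, signs turned for DLA-DMA (0.23), DLA-DRA (0.12), DLA-DQB1 (0.25), CD3E (0.14), BLNK (0.37) and JCHAIN (0.27). BLNK turned with the GAPDH difference alone (0.013), JCHAIN without the 2 tumours (0.19) and MYH7 without IBSP in the score (-0.18). The score difference between serum ALP groups (0.09) was -0.14 without PHEX and ran from -0.0948 to 0.304 on leaving out 1 array.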
